A study of Mus musculus with 45 samples.

Results

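The comparison is the change between day 2 and day 4 in mouse embryonic fibroblasts (MEFs) that expressed MyoD under doxycycline without the small molecules F/R/C. It rests on 6 of 45 bulk RNA-seq libraries, the 3 of day 2 and the 3 of day 4, chosen by their titles and paired by replicate number. The fibroblasts carried a doxycycline-inducible MyoD transgene and a nuclear GFP reporter of Pax7, and their genotype is given as Tg:Pax7-nGFP/C57BL6;DBA2. Doxycycline ran for 2 days in one group and for 4 days in the other, and the labels call the cells of both groups myotubes. The other libraries used below are untreated MEFs of day 0, MyoD alone on days 6, 8 and 10, and cells of the same genotype with doxycycline plus the small molecules called F/R/C on days 2 to 10, always with 3 libraries a group. Whole cultures were harvested with trypsin, so a library can hold converted and unconverted cells. In such bulk samples fewer cells of a type and less RNA per cell cannot be told apart. Nothing in the labels says that the replicates came from separate embryos or cultures, so the p-values measure the spread between these samples, which may be technical.

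MyoD is a basic helix-loop-helix transcription factor that, with E-protein partners, binds E-box DNA and switches on the skeletal muscle programme in fibroblasts. It induces myogenin and MEF2 factors, the cells leave the cycle and fuse through the membrane proteins myomaker and myomixer, and the fused cell then builds sarcomeres, a calcium release apparatus and a postsynaptic membrane. Id and Notch-pathway proteins hold MyoD back, and embryonic, neonatal and adult myosin heavy chains follow each other during muscle development.

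From day 2 to day 4 genes of the sarcomere, of calcium handling and of energy buffering or supply rose. Myod1, Myog and the myomaker and myomixer genes were not called. Of 20 proliferation genes 14 fell, none of which passed when the pairing was ignored. Among 15335 genes tested, 1079 (7.04%) were higher and 303 (1.98%) lower on day 4, together 1382 (9.01%). A gene was called at an adjusted p under 0.05 and a change of at least 2-fold, and "rose" and "fell" below refer to called genes. Fold changes are log2 values of day 4 against day 2 with a standard error (SE), and levels are in CPM, read counts scaled by normalised library size. The genes that rose changed more: their median log2 fold change was 1.82, with 471 of 1079 up at least 4-fold and 204 at least 8-fold, against a median of -1.29 and 24 of 303 at least 4-fold lower. Over all tested genes the median was -0.0018. The genes that rose had a median level of 1.12 CPM on day 2 and 4.80 CPM on day 4. Those that fell had 11.1 and 4.29 CPM, and all tested genes 17.1 and 17.6 CPM. The choice of genes itself favours a low day 2 level in those that rose and a high one in those that fell. At most 3 reads in every day 2 library were found for 117 of the 1079 (204 of all 15335 tested). None of the 303 was among them, as a call of lower requires day 2 above day 4. The largest folds of the 117 rest on few reads. The 3 libraries of day 4 and the 3 of day 2 did not overlap in 5192 genes (33.9% of those tested). When the pairing by number was ignored, 683 genes passed, 562 higher and 121 lower.

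**Figure D1:**
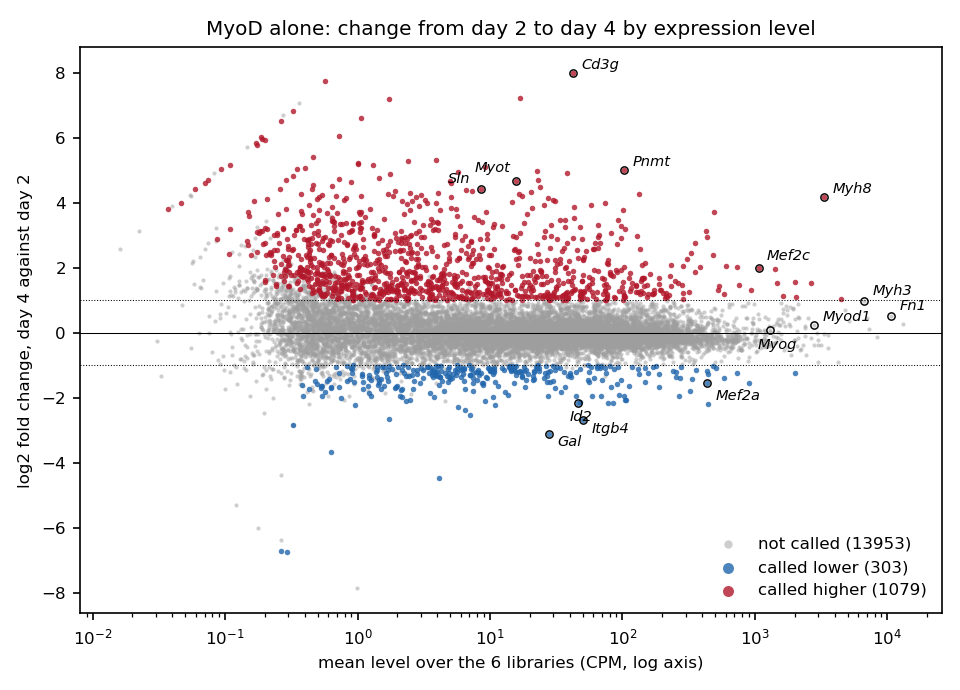
Each point is a tested gene, with its mean level over the 6 libraries (CPM, log axis) against its log2 fold change from day 2 to day 4, red for called higher and blue for called lower. Myh8 and Mef2c rose at high levels, while Myod1 and Myog lie near 0.

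The 6 libraries held 19915724 to 24958524 estimated reads, and replicates of a day correlated across genes with r of 0.972 to 0.983 on the log2 CPM scale. Replicate 2 of day 4 stood somewhat apart, at 66.7 on the first principal component (53.9% of the variance) against 31.8 and 30.8 for the others of that day. A list of 12 myotube markers summed to 15074, 22997 and 17835 CPM in replicates 1, 2 and 3 of day 2 and to 27847, 43050.0 and 25207 CPM on day 4. A list of 12 fibroblast markers summed to 17289, 12402 and 14053 CPM and then to 23860.0, 11944 and 18184 CPM. Replicate 2 was thus highest in myotube markers and lowest in fibroblast markers on both days, and its part in the changes was not tested beyond leaving it out. Without replicate 2 on any day 871 genes passed (693 higher, 178 lower), and without its day 4 library alone 1245 passed.

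The induced gene itself was not called. Myod1, at chr7:46376474-46379099 (GRCm38), gave 1917, 3389.7 and 2178 CPM on day 2 and 2086, 4901 and 2322 CPM on day 4, against a mean of 3.42 CPM in untreated MEFs. All 3 pairs were higher on day 4, yet the groups overlapped and the change of 0.23 (adjusted p = 0.405, SE 0.19) was not called. The reads do not separate the transgene from the native gene. Myogenin (Myog), the MyoD target that commits myoblasts to differentiate, stood at 985, 1404 and 1382 CPM on day 2 and 1129.6, 1656 and 1284 CPM on day 4. The groups overlapped, and the log2 fold change was 0.08 (adjusted p = 0.865, SE 0.28).

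The other regulators moved in both directions. Of 27 tested myogenic regulators 4 rose and 4 fell, with a median log2 fold change of 0.01. Mef2c, a MADS-box factor that acts with MyoD on muscle genes, rose with no overlap, with 329, 529 and 409 CPM on day 2 and 1436, 2324 and 1377 CPM on day 4, a log2 fold change of 1.98 (adjusted p = 0.000390, SE 0.28). Its relative Mef2a moved the other way, with 602, 741 and 620.4 CPM on day 2 and 244, 213 and 206 CPM on day 4 and a log2 fold change of -1.56 (adjusted p = 2.32e-06, SE 0.09). The day 4 level of Mef2a was close to that of untreated MEFs (173 ± 63.8 CPM, SD, n = 3). Per length the mean level of Mef2a was 303 ± 22.7 TPM (a unit corrected for transcript length, SD) on day 2 and 106 ± 15.1 TPM on day 4, and that of Mef2c 183 ± 40.5 and 676 ± 193 TPM, so the order of the 2 genes turned over.

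Six4, a homeobox factor that acts early in myogenesis, gave 38.4, 43.2 and 44.3 CPM on day 2 and 16.3, 13.8 and 13.95 CPM on day 4, without overlap, a log2 fold change of -1.51 (adjusted p = 1.83e-05, SE 0.13). Among the genes that rose, Csrp3, Ankrd2 and Mlip encode proteins of the sarcomere or nuclear envelope that also act in gene regulation. Mlip climbed from 0.187, 0.109 and 0.213 CPM to 3.33, 3.65 and 4.06 CPM, a log2 fold change of 4.36 (adjusted p = 2.76e-06, SE 0.29) that rests on at most 5 reads in a day 2 library. Ankrd2 went from 3.69, 7.34 and 2.21 CPM to 11.3, 27.4 and 15.8 CPM, and Csrp3 from 14.5, 30.7 and 27.5 CPM to 121, 214 and 62.3 CPM, with log2 fold changes of 2.09 and 2.22. Ankrd1, a stretch-responsive relative of Ankrd2, fell instead, by 1.398 on the log2 scale, from 944, 918 and 665 CPM to 376, 314 and 259 CPM. Leaving out replicate 1 gave Ankrd1 -1.44 (adjusted p = 0.0789), which no longer passed. Ignoring the pairing ended the calls of Ankrd2 (adjusted p = 0.0837) and Ankrd1 (adjusted p = 0.0958).

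**Figure D2:**
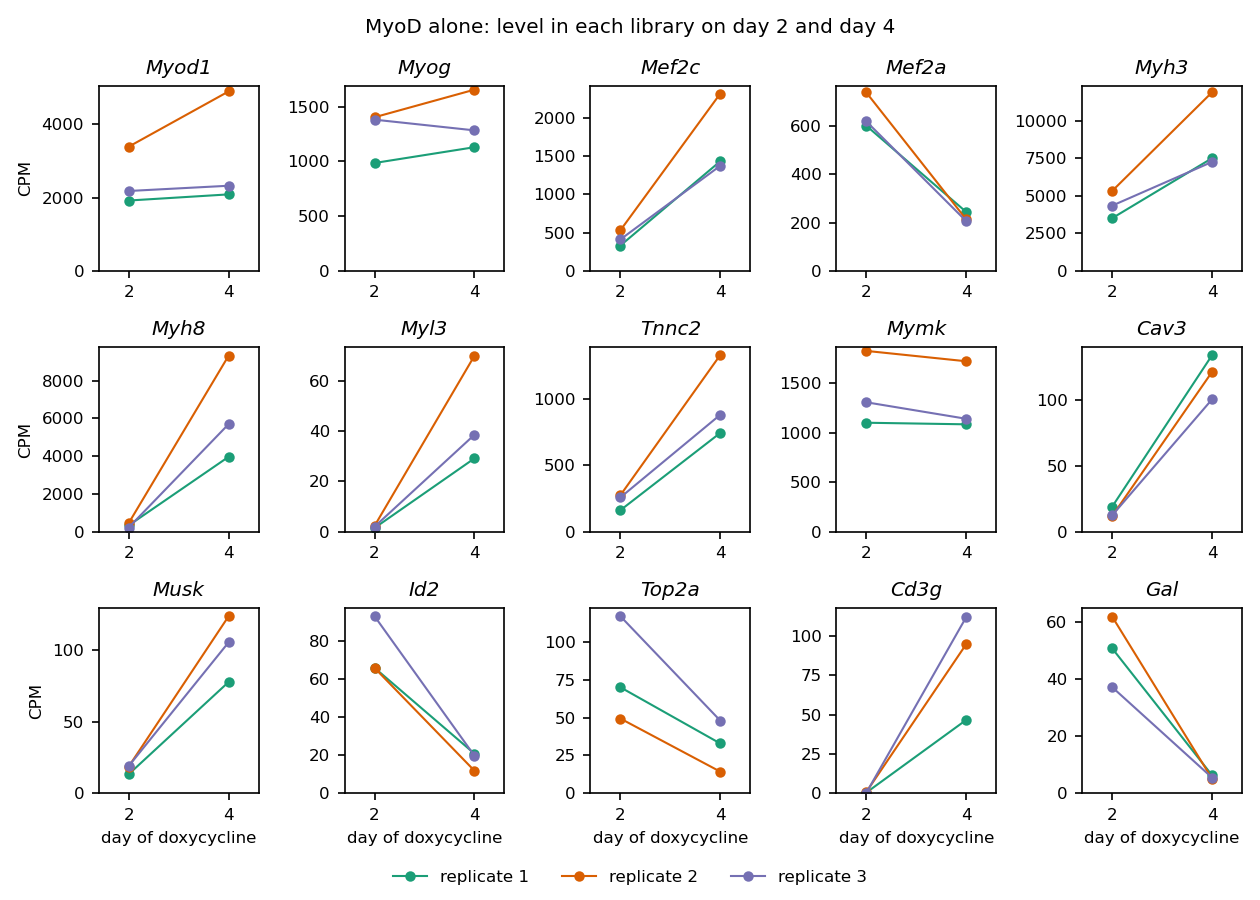
Each panel gives 1 gene in CPM (linear axis from 0), with a line from day 2 to day 4 for each of the 3 replicate numbers. The days overlap for Myod1, Myog and Mymk. Mef2a, Id2, Top2a and Gal go down in every pair, while Mef2c, Myh8, Myl3, Tnnc2, Cav3, Musk and Cd3g go up in every pair.

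Among genes that restrain myogenic factors Id2 and Notch-pathway genes fell. Of 25 tested Id, Hes, Notch-pathway and other antagonist genes 5 fell and 1 rose, with a median of -0.45. Id2, which sequesters the E-protein partners of MyoD, gave 65.9, 65.8 and 93.04 CPM on day 2 and 20.8, 11.8 and 19.7 CPM on day 4, a log2 fold change of -2.15 (adjusted p = 0.000361, SE 0.30). The Notch ligand Dll1 gave 65.99, 65.1 and 81.9 CPM on day 2 and 20.97, 17.6 and 17.8 CPM on day 4, and the Notch target genes Hey1 and Heyl fell by 1.97 and 2.14 on the log2 scale. In none of these did the groups overlap. Heyl was at 0.4599 CPM in untreated MEFs, 78.5 ± 24.7 CPM (SD, n = 3) on day 2 and 17.8 ± 6.27 CPM on day 4, and without replicate 2 its change was -2.01 (adjusted p = 0.0621). Id4 also fell, by 1.39, at a low level of 4.72, 4.35 and 4.25 CPM on day 2. Hes6, which promotes rather than blocks differentiation, was not called (-0.55, adjusted p = 0.0942, SE 0.23). The 1 member that rose, Musk, is a receptor kinase of the synapse and no antagonist of MyoD by function.

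The thick filament had the highest median of the gene lists. Of 24 tested myosin and thick filament genes 14 rose and none fell, the median was 1.49, and 23 of the 24 values were positive. Without the pairing 9 rose. Neonatal myosin heavy chain (Myh8, chr11:67277124-67308634) gave 339, 459 and 226 CPM on day 2 and 3969, 9314 and 5696 CPM on day 4, so that the lowest day 4 library was over every day 2 library, and its log2 fold change was 4.17 (adjusted p = 2.76e-06, SE 0.28). Slow or beta-cardiac myosin (Myh7) went from 62.9, 74.3 and 54.9 CPM to 734, 1388 and 633 CPM, and the adult fast chain Myh2 from 8.22, 7.83 and 5.44 CPM to 92.02, 111 and 122 CPM. The slow light chain Myl3 had the highest value of the list, 4.48 (adjusted p = 1.29e-06, SE 0.24), with 1.54, 2.34 and 2.04 CPM on day 2 and 29.2, 69.9 and 38.5 CPM on day 4. Mybpc1, the slow form of myosin-binding protein C, rose by 3.13 on the log2 scale.

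The embryonic chain Myh3 was already abundant and did not reach 2-fold. Its libraries gave 3501, 5320.0 and 4339 CPM on day 2 and 7510.1, 11913 and 7264 CPM on day 4, with no overlap and a log2 fold change of 0.97 (adjusted p = 0.0303, SE 0.30), and without replicate 3 it was 1.13 (adjusted p = 0.00175) and passed. Per length, Myh3 led on both days, with 1299 ± 231 TPM (SD, n = 3) on day 2 and 2602 ± 661 TPM on day 4. Myh8 came next, at 99.9 ± 32.03 and then 1804 ± 709 TPM, followed by Myh7 at 30.4 ± 4.97 and 384 ± 168 TPM and Myh2 at 2.12 ± 0.458 and 31.6 ± 4.24 TPM. The gap between Myh3 and Myh8 therefore narrowed from day 2 to day 4. The titin gene Ttn had a log2 fold change of 0.903 (adjusted p = 0.0330, SE 0.28) with overlapping groups, and the fast light chain Mylpf 0.19 (adjusted p = 0.464, SE 0.18). Myosin heavy chains are near-identical copies over long stretches, and reads that fit several were divided by the authors' quantification, so the split among Myh3, Myh8, Myh2 and Myh7 is less certain than their sum.

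The atrial or embryonic light chain Myl4 and the fast alkali light chain Myl1 were among the most abundant genes that rose. Myl4 gave 1047, 1772 and 1259 CPM on day 2 and 3179, 5382 and 3347 CPM on day 4 and a log2 fold change of 1.53 (adjusted p = 8.56e-05, SE 0.17). Myl1 rose by 1.53 on the log2 scale, from 731 ± 187 CPM to 2191 ± 765 CPM (SD, n = 3), and was not called when the pairing was ignored (adjusted p = 0.0703). Myh6, the alpha-cardiac chain and a marker of heart muscle, also rose, from 1.45, 2.39 and 1.19 CPM to 14.1, 20.03 and 3.91 CPM. None of the other 7 cardiac markers was called, and Nppa, Tnni3 and Nkx2-5 had at most 3 reads in any of the 6 libraries. Over all 8 the summed level was 4.93 to 5.98 CPM on day 2 and 9.22 to 25.3 CPM on day 4. Without replicate 1 Myh6 was 2.45 (adjusted p = 0.0630), and ignoring the pairing it had an adjusted p of 0.179.

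In the thin filament 8 of 18 tested genes rose and none fell, with a median of 0.95, and 5 rose without the pairing. Tnnc2, the calcium-binding troponin subunit of fast fibres, gave 162, 275 and 258 CPM on day 2 and 742, 1326 and 878 CPM on day 4, a log2 fold change of 2.05 (adjusted p = 6.65e-05, SE 0.22). The genes for nebulin (Neb), the giant ruler of the thin filament, and for its end-binding proteins tropomodulin 1 (Tmod1) and leiomodin 2 (Lmod2) rose by 2.76, 2.73 and 2.12. Neb stood at 75.3, 102 and 91.7 CPM on day 2 and 495, 771 and 592 CPM on day 4. The inhibitory troponin of fast fibres, Tnni2, rose by 1.43. Leaving out replicate 2 of day 2 left 5 genes of the list called.

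Skeletal actin and the troponin T of embryonic muscle, both high on day 2, were not called. Acta1, skeletal actin, gave 4824, 7250.1 and 5215 CPM on day 2 and 7368, 11443 and 5831 CPM on day 4, with overlap and a log2 fold change of 0.44 (adjusted p = 0.216, SE 0.25). Tnnt2 was lower in all 3 pairs, but the groups overlapped and the log2 fold change was -0.22 (adjusted p = 0.422, SE 0.19). Cardiac actin, Actc1, rose just past 2-fold, from 2257, 3925 and 2794 CPM to 4871, 7350.2 and 5794 CPM, a log2 fold change of 1.02 (adjusted p = 0.00873, SE 0.24), and slow troponin I, Tnni1, likewise (1.09, adjusted p = 0.00402, SE 0.22). Both calls were marginal: without replicate 1 the values were 0.98 (adjusted p = 0.116) for Actc1 and 1.02 (adjusted p = 0.0850) for Tnni1. Without replicate 1, or 2, of day 2, or without replicate 3 of day 4, both came in under 2-fold, with 0.85 to 0.98 (adjusted p = 0.0352 to 0.0439) for Actc1 and 0.986 to 0.998 (adjusted p = 0.0191 to 0.0252) for Tnni1. Ignoring the pairing also ended the calls of Actc1 (adjusted p = 0.162) and Tnni1 (adjusted p = 0.183).

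At the Z-disc, where thin filaments anchor, 8 of 27 genes rose and none fell, with a median of 0.81. Myot, which encodes the actin cross-linker myotilin, had the highest value, 4.68 (adjusted p = 2.32e-06, SE 0.28), with 1.35, 1.14 and 0.6804 CPM on day 2 and 21.99, 57.8 and 12.2 CPM on day 4. Tcap, the telethonin that caps titin, went from 5.84, 5.601 and 2.72 CPM to 28.2, 44.7 and 13.04 CPM (2.51, adjusted p = 5.34e-05, SE 0.26), and Actn2, sarcomeric alpha-actinin, from 429, 722 and 567 CPM to 1745, 3048 and 1967 CPM (1.95, adjusted p = 0.000179, SE 0.24). Calsarcin 1, encoded by Myoz2, rose by 1.69. In Myot and Tcap replicate 2 was highest and replicate 3 lowest on day 4, and the groups did not overlap. When the pairing was ignored, 2 of the 8 genes of the list stayed called. The calls of Tcap (adjusted p = 0.0667) and Myoz2 (adjusted p = 0.0505) were among those that ended. Without replicate 1 there were 5 called. The scaffold genes Flnc, Des and Synpo2l, abundant on day 2, had log2 fold changes of 0.204, 0.43 and 0.26 and were not called.

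As many of these genes rose together, promoters were read for 2 binding motifs, over the 250 bases before the start site (RefSeq, GRCm38.p6; the most upstream start listed for a gene). The E-box CAGCTG, the preferred core of MyoD and myogenin and the same on both strands, was in 12.2% of 11356 tested genes with a window, in 19.9% of 755 that rose, in 13.6% of 221 that fell and in 11.6% of 10380 not called. The MEF2 site, whose consensus reads the same on both strands and does not contain CAGCTG, was in 1.8%, 3.8%, 2.3% and 1.7%. CAGCTG was in 13.0% and a MEF2 site in 2.9% of all 32851 windows given. In the 3 sarcomere lists 7 of 22 windows of genes that rose and 12 of 28 of genes not called held CAGCTG. A MEF2 site was in 4 of these 22 and in 6 of these 28. Within these lists neither motif was more frequent in the genes that rose. A match is a description of letters only. The windows of 3 genes that rose and hold CAGCTG, and of Myh8, which holds a MEF2 site alone, are given 5′ to 3′ on the gene's strand, with matches in capitals.
Myoz2, chr3:123034988-123035237, minus strand: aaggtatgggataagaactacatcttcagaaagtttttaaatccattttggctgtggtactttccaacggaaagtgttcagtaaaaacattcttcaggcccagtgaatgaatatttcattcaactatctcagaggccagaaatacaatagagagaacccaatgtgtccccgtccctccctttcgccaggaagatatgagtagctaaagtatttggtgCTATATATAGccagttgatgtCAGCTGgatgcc
Mybpc1, chr10:88605153-88605402, minus strand: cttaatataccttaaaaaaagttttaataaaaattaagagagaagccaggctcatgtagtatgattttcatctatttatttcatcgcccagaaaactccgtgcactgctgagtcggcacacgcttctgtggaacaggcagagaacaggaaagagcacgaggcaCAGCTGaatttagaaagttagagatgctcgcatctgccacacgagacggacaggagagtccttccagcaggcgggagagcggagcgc
Musk, chr4:58285712-58285961, plus strand: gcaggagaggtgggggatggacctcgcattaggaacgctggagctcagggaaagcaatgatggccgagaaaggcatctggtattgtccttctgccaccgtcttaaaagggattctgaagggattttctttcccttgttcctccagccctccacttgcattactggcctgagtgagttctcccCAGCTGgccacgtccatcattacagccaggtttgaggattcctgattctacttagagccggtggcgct
Myh8, chr11:67276874-67277123, plus strand: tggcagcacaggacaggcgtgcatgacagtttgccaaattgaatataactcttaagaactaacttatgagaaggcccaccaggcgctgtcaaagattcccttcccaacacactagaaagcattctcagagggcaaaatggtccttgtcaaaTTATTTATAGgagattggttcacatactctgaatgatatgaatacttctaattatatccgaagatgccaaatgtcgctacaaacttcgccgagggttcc

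The E-box of Myoz2 starts at position -12 and its MEF2 site at -33, counted from -1 at the base before the start. Those of Mybpc1 and Musk start at -87 and -68, and the MEF2 site of Myh8 at -99. The 4 genes were chosen after their values were seen.

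**Figure D3:**
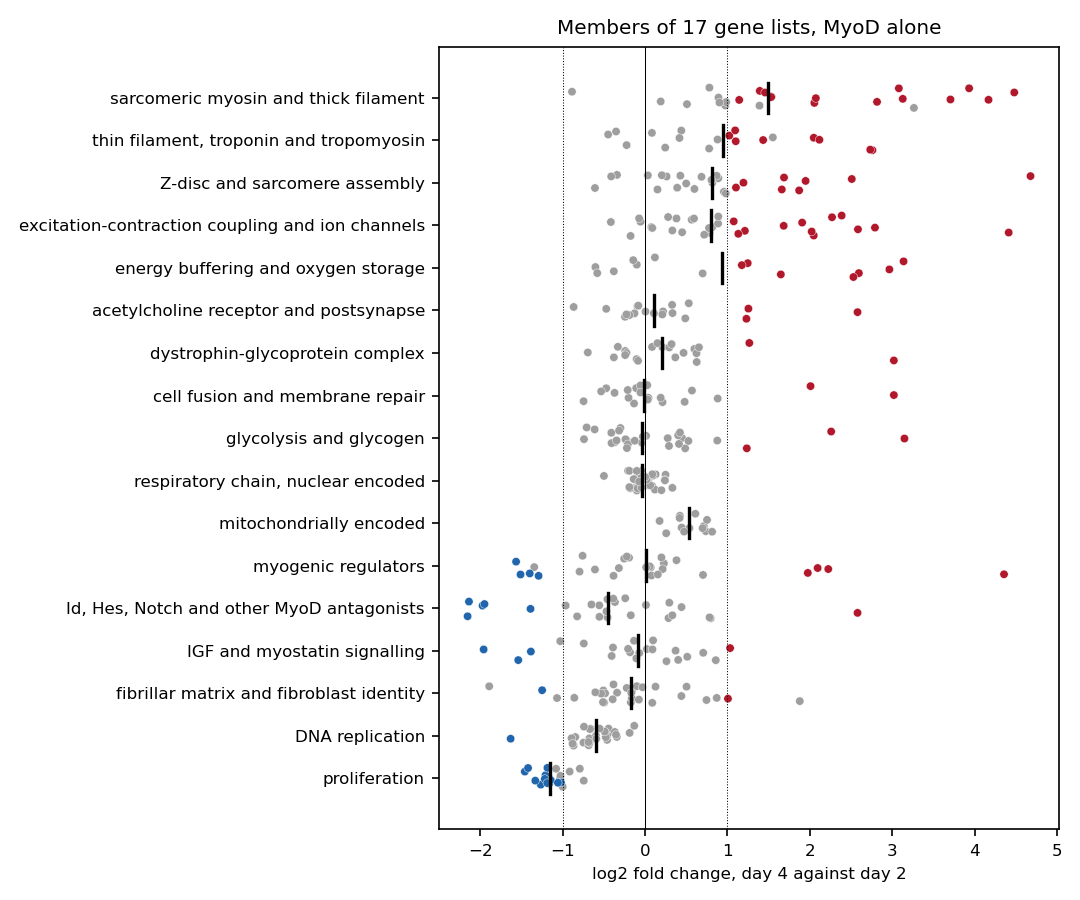
Each dot is a tested member of 1 of 17 gene lists at its log2 fold change from day 2 to day 4, red for called higher, blue for called lower and grey for not called, with the list's median as a black bar and dotted lines at 2-fold. The sarcomere lists lie mostly to the right of 0, the proliferation and DNA replication lists wholly to the left, and the nuclear-encoded respiratory chain within 2-fold.

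In the machinery that couples membrane excitation to contraction, of 30 tested genes 12 rose and none fell, with a median of 0.80 and 26 positive values. Cacna1s, the voltage sensor of the muscle calcium channel, was the most abundant of the 5 that rose most, with 117, 175 and 159 CPM on day 2 and 646, 1065 and 718 CPM on day 4 and 2.39 (adjusted p = 7.27e-05, SE 0.26). Sln, which encodes sarcolipin, a small inhibitor of the calcium pump, went from 0.747, 0.870 and 0.638 CPM to 13.4, 22.1 and 13.4 CPM, a log2 fold change of 4.41 (adjusted p = 3.77e-07, SE 0.20). The adult sodium channel Scn4a gave 1.82, 5.17 and 6.59 CPM on day 2 and 19.2, 24.2 and 35.6 CPM on day 4, and the potassium channel Kcnj11 and the triad protein gene Trdn rose by 2.79 and 2.27. No groups overlapped among these 5. Without the pairing 8 genes of the list rose, and Trdn was among those not called (adjusted p = 0.0916). Srl and Casq2, calcium-binding proteins of the reticulum that were high on day 2, were not called (0.72, adjusted p = 0.0178, SE 0.20, and 0.57, adjusted p = 0.117, SE 0.25).

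The genes for the fusion step itself were not called. Of 21 tested genes for fusion and membrane repair 2 rose, none fell and the median was -0.05. The share that rose, 9.5%, was near the 7.04% over all tested genes. Myomaker (Mymk), the membrane protein that primes myoblasts to fuse, gave 1099, 1822 and 1305 CPM on day 2 and 1083, 1718 and 1139 CPM on day 4 and a log2 fold change of -0.11 (adjusted p = 0.688, SE 0.17). Myomixer (Mymx), which completes the fusion pore, gave 92.4, 128 and 128 CPM on day 2 and 91.8, 107 and 117 CPM on day 4 and -0.13 (adjusted p = 0.532, SE 0.15). Both were a little lower in all 3 pairs, and the groups overlapped. Day 2 was the highest mean of the whole course for both, and on day 10 Mymk stood at 702 ± 365 CPM (SD, n = 3) and Mymx at 48.96 ± 12.3 CPM. The adhesion molecules Ncam1 and Cdh15 had log2 fold changes of -0.47 (adjusted p = 0.0962, SE 0.20) and -0.199 (adjusted p = 0.407, SE 0.17). The 2 that rose were Cav3 and Trim72. Cav3, muscle caveolin, went from 19.1, 12.02 and 12.5 CPM to 134, 122 and 101 CPM (3.02, adjusted p = 1.96e-05, SE 0.27), and Trim72, which patches torn membrane, from 131, 180.1 and 143 CPM to 492, 819 and 555 CPM (2.01, adjusted p = 9.51e-06, SE 0.16).

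At the future synapse 3 of 19 tested genes rose and none fell, with a median of 0.11. Musk, the receptor kinase that organises the postsynaptic membrane, gave 13.2, 18.5 and 18.9 CPM on day 2 and 77.8, 124 and 106 CPM on day 4 (2.58, adjusted p = 0.000244, SE 0.34). Rapsn, the scaffold that clusters acetylcholine receptors, rose from 19.2, 32.6 and 33.3 CPM to 47.2, 84.2 and 73.97 CPM, and the neuregulin receptor Erbb2 from 73.9, 86.3 and 90.6 CPM to 170.2, 258 and 178 CPM, with log2 fold changes of 1.25 and 1.23. Rapsn was not called when the pairing was ignored (adjusted p = 0.0611). The receptor subunits Chrna1 and Chrng were already abundant on day 2 and not called (0.33, adjusted p = 0.395, SE 0.27, and 0.33, adjusted p = 0.393, SE 0.28). Lrp4, the agrin receptor that signals through Musk, was lower in all 3 pairs without reaching 2-fold (-0.87, adjusted p = 0.00708, SE 0.20). Without replicate 3 it was -1.02 (adjusted p = 0.00109) and passed. In the dystrophin complex, which ties the cytoskeleton to the matrix, Cav3 and Dmd rose of 21 genes (9.5%, near the 7.04% over all tested genes). Dmd had 53.8, 42.5 and 17.6 CPM on day 2 and 101, 119 and 48.8 CPM on day 4, with overlapping groups, a rise in each pair and 1.27 (adjusted p = 0.00451, SE 0.27), and lost its call without the pairing (adjusted p = 0.260). Its partners Dag1 and Utrn were not called (-0.33 and 0.21).

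Genes that buffer or supply energy were among those that rose. Of 14 tested genes in the list of energy buffering and oxygen storage 7 rose and none fell, with a median of 0.94. The list also holds a fatty acid carrier, a glucose transporter and a cytochrome oxidase subunit. Ampd1, muscle AMP deaminase, was at 4.997, 4.79 and 4.98 CPM on day 2 and 39.7, 71.9 and 30.5 CPM on day 4 (3.14, adjusted p = 3.98e-06, SE 0.22). Mitochondrial creatine kinase (Ckmt2) rose by 2.96, the fatty acid carrier Fabp3 by 2.59, the insulin-responsive glucose transporter Slc2a4 by 2.53 and the muscle form of a cytochrome oxidase subunit, Cox6a2, by 1.65. Ckm, muscle creatine kinase, reached only 28.5, 42.5 and 58.3 CPM on day 4 from 12.1, 18.2 and 23.9 CPM on day 2 (1.25, adjusted p = 4.92e-05, SE 0.13). Ckmt2 ranged from 9.08 CPM in replicate 3 to 52.3 CPM in replicate 2 on day 4, and it lost its call without the pairing (adjusted p = 0.0956). In that setting 5 genes of the list rose.

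Of 29 glycolysis and glycogen genes 3 rose, each a muscle form: Ppp1r3a, which targets phosphatase to glycogen (3.15, adjusted p = 7.63e-05, SE 0.34), Pygm, muscle glycogen phosphorylase (2.26, adjusted p = 9.67e-06, SE 0.18), and Pgam2, muscle phosphoglycerate mutase (1.23, adjusted p = 0.000213, SE 0.16). Pygm gave 83.9, 122 and 99.8 CPM on day 2 and 418, 763 and 369.8 CPM on day 4. Ignoring the pairing ended the call of Pgam2 (adjusted p = 0.0713). The list's share that rose, 10.3%, was near the 7.04% over all tested genes, and its median was -0.04. The general enzymes Gapdh, Pkm and Eno1 had log2 fold changes of -0.24, -0.41 and -0.37. None of the 35 genes in the list of the nuclear respiratory chain was called, and they spanned -0.50 to 0.33. That list leaves out Cox6a2, which rose and was counted with the energy buffering genes. The 13 mitochondrially encoded genes were all positive, with a median of 0.54, and 7 passed the adjusted p without reaching 2-fold. mt-Co1 gave 4034, 3797 and 3096 CPM on day 2 and 5259, 6092 and 6396 CPM on day 4, with no overlap and 0.699 (adjusted p = 0.0204, SE 0.20). Of 14 tested muscle splicing regulators 1 rose (7.1%, near the 7.04% over all tested genes), and the median was -0.08. It was Rbfox1, from 15.4, 11.96 and 14.1 CPM to 56.2, 75.5 and 65.8 CPM (2.21, adjusted p = 7.85e-05, SE 0.24). Its relative Rbfox2 and the early regulator Rbm24 did not pass (-0.54, adjusted p = 0.00308, SE 0.11, and -0.96, adjusted p = 0.0169, SE 0.26). Without replicate 2 of day 2 Rbm24 was -1.16 (adjusted p = 0.0145).

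Cell cycle genes were lower, in a result that depended on the pairing. All 20 proliferation genes had negative values, with a median of -1.15, and 14 fell. None passed when the pairing was ignored, and 1 passed with the 30 libraries of both treatments. Top2a, the topoisomerase that untangles replicated chromosomes, gave 70.2, 49.5 and 117 CPM on day 2 and 32.9, 14.2 and 48.1 CPM on day 4 (-1.46, adjusted p = 0.0145, SE 0.38), and cyclin B1 (Ccnb1) 28.7, 19.9 and 42.8 CPM on day 2 and 14.5, 5.67 and 17.6 CPM on day 4 (-1.42, adjusted p = 0.00663, SE 0.32). In both, each pair was lower and the groups did not overlap, although replicate 3 stood above replicate 2 on both days. Leaving out replicate 3 gave -1.55 (adjusted p = 0.0837) for Top2a and -1.49 (adjusted p = 0.0553) for Ccnb1, and leaving out replicate 2 of day 2 -1.03 (adjusted p = 0.0820) and -0.99 (adjusted p = 0.0276). Without replicate 1 of day 4 Top2a was -1.29 (adjusted p = 0.0672). Depending on the libraries left out, between 1 and 18 genes of the list passed. Of the list, 4 passed without replicate 1, 1 without replicate 3, 1 without replicate 2 of day 2, 3 without replicate 1 of day 4 and 5 without replicate 3 of day 4. The proliferation marker Mki67 missed the threshold (-1.08, adjusted p = 0.0571, SE 0.39), and without replicate 1 of day 2 it was -1.37 (adjusted p = 0.0310).

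All 28 DNA replication genes were also negative, with a median of -0.59, but of them only E2f2, which encodes an activating E2F factor, fell (4 without replicate 1 of day 2). E2f2 gave 9.57, 14.95 and 27.3 CPM on day 2 and 4.74, 2.16 and 10.6 CPM on day 4, with overlap and -1.63 (adjusted p = 0.0216, SE 0.46), and lost its call without replicate 1 (-1.87, adjusted p = 0.107) or replicate 2 (-1.23, adjusted p = 0.105). It also lost it without replicate 2 or 3 of day 2, or without replicate 1 or 2 of day 4 with -1.64 to -1.24 (adjusted p = 0.0685 to 0.0936). Rrm2 and Pcna had log2 fold changes of -0.66 and -0.44. Of 18 genes of cell-cycle exit 1 fell (5.6%, against 1.98% over all tested genes). It was the inhibitor Cdkn1c, from 366, 557 and 547 CPM to 119.6, 123 and 305 CPM (-1.44, adjusted p = 0.0173, SE 0.39). Without replicate 1 Cdkn1c was -1.35 (adjusted p = 0.177). Single libraries left out, replicate 1 of day 2 or replicate 1 or 2 of day 4, gave -1.42 to -1.07 (adjusted p = 0.0511 to 0.0692). Neither E2f2 (adjusted p = 0.119) nor Cdkn1c (adjusted p = 0.115) was called when the pairing was ignored. Cdkn1a, the p21 inhibitor that MyoD induces, was lower in all pairs by less than 2-fold (-0.69, adjusted p = 0.000803, SE 0.11), while the stress gene Gadd45a was higher by less than 2-fold (0.92, adjusted p = 0.00105, SE 0.15).

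Among growth factor genes Igfbp5, Igf1 and Igfbp3 fell. Of 22 IGF and myostatin genes 3 fell and 1 rose, with a median of -0.09. Igfbp5, a binding protein made by differentiating myoblasts, gave 1354, 1352 and 1282 CPM on day 2 and 453, 612 and 358 CPM on day 4 (-1.54, adjusted p = 0.000179, SE 0.19). Igf1 went from 24.98, 44.8 and 61.4 CPM to 9.69, 7.396 and 16.4 CPM (-1.96, adjusted p = 0.00286, SE 0.38), and Igfbp3 from 401, 367 and 411 CPM to 155, 103 and 194 CPM (-1.38, adjusted p = 0.00449, SE 0.29). Without replicate 2 the values were -1.72 (adjusted p = 0.0546) for Igf1 and -1.203 (adjusted p = 0.0639) for Igfbp3, which left 1 gene of the list lower, and without replicate 1 Igfbp3 was -1.39 (adjusted p = 0.0648). Igf2, by far the most abundant ligand per length with 2536 ± 546 TPM (SD, n = 3) on day 2 and 3299 ± 352 TPM on day 4, was not called (0.37, adjusted p = 0.285, SE 0.25). Mstn, which encodes the growth inhibitor myostatin, passed at 0.794, 2.61 and 0.5103 CPM on day 2 and 2.69, 2.88 and 1.26 CPM on day 4 with overlapping groups (1.03, adjusted p = 0.0358, SE 0.33). Ignoring the pairing (adjusted p = 0.583) and 7 of the 9 sets with libraries left out ended the call of Mstn, with 0.61 (adjusted p = 0.327) for replicate 1 and 0.92 (adjusted p = 0.138) for replicate 3.

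Fibroblast and matrix genes were mostly not called. Of 29 fibrillar matrix and identity genes 1 rose and 1 fell, with a median of -0.17. That is 3.4% each, against 7.04% that rose and 1.98% that fell over all tested genes. Col3a1, a fibrillar collagen, gave 886, 1084 and 1065 CPM on day 2 and 452, 382 and 498 CPM on day 4 (-1.25, adjusted p = 0.0218, SE 0.35), and Pdgfrb, a mesenchymal growth factor receptor, rose by 1.01. Both calls were marginal. Without replicate 1 Col3a1 was -1.37 (adjusted p = 0.108) and without replicate 2 of day 2 -0.74 (adjusted p = 0.153). Leaving out replicate 3, or its day 4 library or that of replicate 1, gave -1.306 to -1.100 (adjusted p = 0.0720 to 0.0980). Ignoring the pairing ended the calls of Col3a1 (adjusted p = 0.173) and Pdgfrb (adjusted p = 0.216), and without replicate 3 of day 2 the list had 3 that fell. Pdgfrb came in under 2-fold in 5 of the 9 sets with libraries left out, with values down to 0.86 without replicate 3 of day 4. Fn1, the fibronectin gene, gave 11453, 7522 and 7032 CPM on day 2 and 17645, 8683 and 11503 CPM on day 4 and stayed under 2-fold (0.504, adjusted p = 0.0255, SE 0.15). Vim and Bgn had -0.39 and -0.38.

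Among 23 TGF-beta response and smooth muscle contractile genes 2 fell and 2 rose (8.7% each). Over all tested genes 1.98% fell and 7.04% rose, so the share that rose was near that of all genes. The ligand Tgfb2 gave 115, 127 and 73.01 CPM on day 2 and 56.96, 48.3 and 30.8 CPM on day 4 (-1.23, adjusted p = 0.000540, SE 0.18), and the smooth muscle light chain Myl9 675, 629 and 559 CPM on day 2 and 324, 207 and 276 CPM on day 4 (-1.26, adjusted p = 0.00413, SE 0.26). Myl9 was -0.95 (adjusted p = 0.0251) without replicate 2 of day 2. Ignoring the pairing ended the calls of Tgfb2 (adjusted p = 0.103), Myl9 (adjusted p = 0.0915) and Itga11 (adjusted p = 0.309). Smooth muscle actin, Acta2, was lower in all pairs without overlap but not 2-fold (-0.91, adjusted p = 0.0144, SE 0.24), and without replicate 3 it was -1.07 (adjusted p = 0.0337). The collagen receptor subunit Itga11 and smoothelin (Smtn) rose by 1.39 and 1.25. Of 19 matrix protease genes Adamts4, an aggrecanase, fell from 101, 123 and 189 CPM to 30.4, 21.2 and 43.6 CPM (-2.17, adjusted p = 9.00e-05, SE 0.24). Of 19 interferon and inflammatory genes 1 fell, Bst2 (-1.39, adjusted p = 0.00121, SE 0.23). The protease and interferon lists thus each had 5.3% that fell, a single gene, against 1.98% over all tested genes. None of 26 unfolded protein response genes was called.

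Progenitor genes were nearly absent or mostly not called. Pax7 had at most 3 reads and Myf5 none in any of the 6 libraries. Of 11 tested members Heyl and Spry1, an inhibitor of receptor kinase signalling, fell. Spry1 went from 111, 129 and 136 CPM to 58.2, 56.6 and 65.4 CPM (-1.07, adjusted p = 0.00337, SE 0.21) and was -1.01 (adjusted p = 0.0751) without replicate 2. Single day 2 or day 4 libraries left out took it to -0.94 (replicate 3 of day 2) and -0.98 (replicate 1 of day 4). Chodl, a lectin-like membrane protein, rose from 0.514, 0.544 and 0.0425 CPM to 6.53, 18.1 and 4.297 CPM (4.65, adjusted p = 6.68e-06, SE 0.36). Markers of several other cell types were low. Summed levels over the 3 day 2 and 3 day 4 libraries were 6.76 to 11.3 CPM for 8 macrophage and leukocyte markers, 4.68 to 9.31 CPM for 8 endothelial, 0.723 to 1.49 CPM for 7 adipocyte and 6.80 to 11.1 CPM for 8 epithelial markers, with none of these called. Adgre1, Adipoq and Epcam had at most 3 reads in any of them. Neuron markers summed to 57.9 to 161 CPM, of which Tubb3, a tubulin gene, fell (-1.38, adjusted p = 3.97e-05, SE 0.14) and Rbfox3 had at most 3 reads. Glia markers summed to 107 to 222 CPM, of which Erbb3, a neuregulin receptor gene, held 105 to 219.6 CPM, and chondrocyte and bone markers to 18.2 to 36.2 CPM, with none called. The 7 smooth muscle markers summed to 7974, 8041 and 6415 CPM on day 2 and 5544, 4169 and 4993 CPM on day 4, without overlap, most of it from Acta2, and Smtn alone of them was called. The part of any such cells in the results was not tested.

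The 1079 genes that rose took different courses afterwards. Their highest mean among days 2 to 10 of MyoD alone was on day 4 for 284 (26.3%), on day 6 for 473 (43.8%), on day 8 for 94 (8.7%) and on day 10 for 228 (21.1%). Over all tested genes the shares were 30.2% on day 2, 15.6% on day 4, 13.6% on day 6, 15.7% on day 8 and 24.9% on day 10. Since the call requires day 4 above day 2, the absence of day 2 is set by the choice of genes. Of the 303 that fell, 82 (27.1%) were lowest on day 4, 112 (37.0%) on day 6, 44 (14.5%) on day 8 and 65 (21.5%) on day 10. Over all tested genes the lowest mean was on day 2 for 35.1%, day 4 for 18.3%, day 6 for 14.7%, day 8 for 12.2% and day 10 for 19.8%. By the choice of genes, none that fell was lowest on day 2. In both sets this choice raises the shares of the later days against those of all tested genes. Sln, for example, had its highest mean on day 6, at 18.9 ± 10.8 CPM (SD, n = 3), and was at 6.42 ± 2.52 CPM on day 10. Its day 4 mean of 16.3 CPM lay within the day 6 spread, and the difference between these days was not tested. Ankrd2 had its highest mean on day 10, at 216 ± 139 CPM, and Myot too, at 68.1 ± 56.4 CPM.

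**Figure D4:**
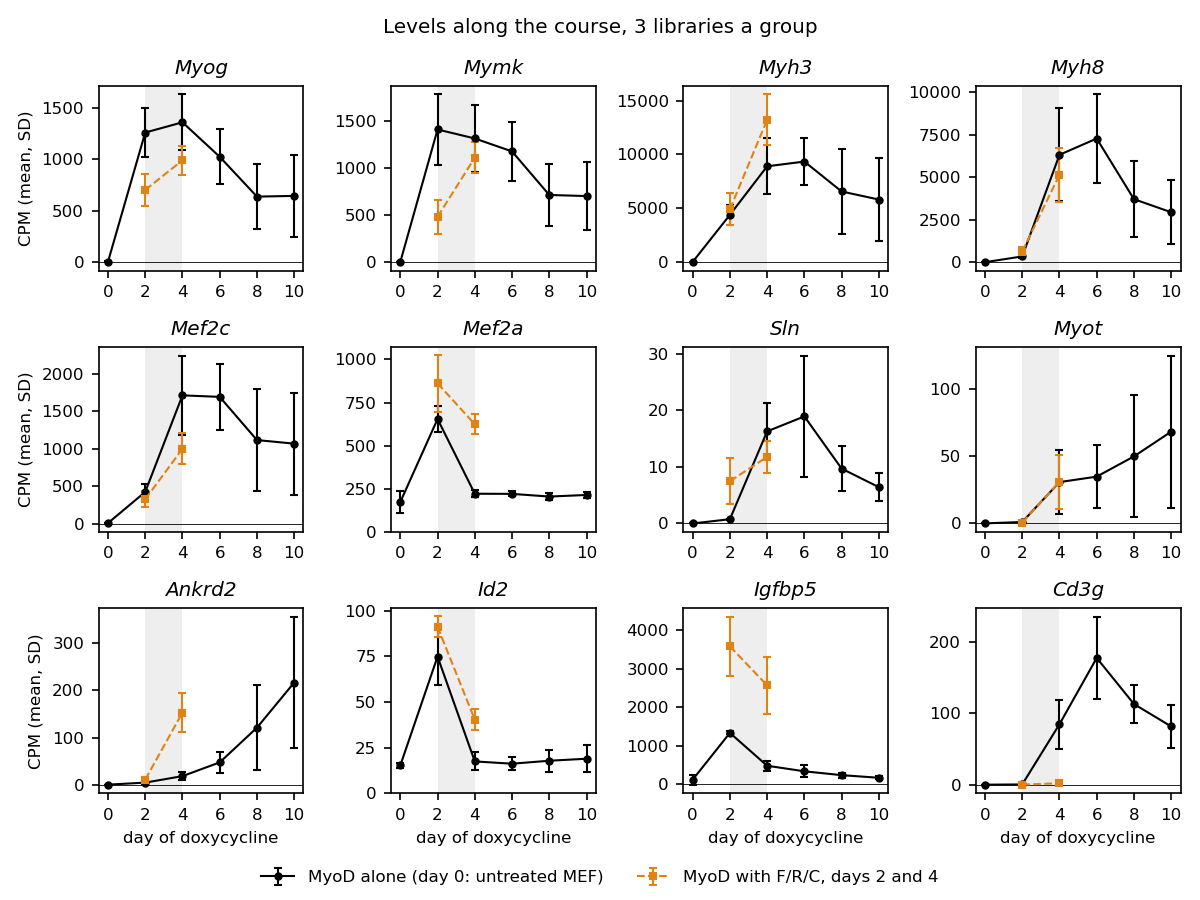
Mean CPM (linear axis) with SD of 3 libraries by day of doxycycline, black for MyoD alone from untreated MEFs on day 0, orange for MyoD with F/R/C on days 2 and 4, and the interval compared in grey. Myog and Mymk are about as high on day 2 as on day 4, Myh8, Mef2c and Cd3g come up between days 2 and 4, and Mef2a and Id2 are back near the MEF level on day 4.

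The largest changes outside the lists were not all muscle genes. Under the rule for named genes (protein-coding, whole read counts, all pairs in 1 direction, at least 5 CPM) the first was Cd3g at chr9:44969572-44980431, which encodes a chain of the T-cell receptor complex. It gave 0.2802, 0.653 and 0.08505 CPM on day 2 and 46.6, 94.8 and 112 CPM on day 4, a log2 fold change of 7.997 (adjusted p = 1.29e-06, SE 0.44). Rims3, a gene for a synaptic active-zone protein, gave 0.2802, 0.163 and 0.255 CPM on day 2 and 22.7, 37.7 and 40.1 CPM on day 4 (7.23, adjusted p = 5.46e-05, SE 0.75), with at most 6 reads in a day 2 library. Pnmt, the enzyme that turns noradrenaline into adrenaline, went from 9.71, 4.46 and 3.87 CPM to 226, 265 and 107 CPM (4.997, adjusted p = 0.000122, SE 0.59). Amhr2, the receptor of anti-Müllerian hormone, the unconventional myosin Myo1a and the matrix protein gene Frem2 rose by 5.09, 4.98 and 4.91. The list closed with Armh4, Afap1l2, Calml3 and Fam189a2 at 4.698, 4.36, 4.29 and 4.27. In each of the 10 every pair rose and the groups did not overlap.

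On the lower side Gal, which encodes the neuropeptide galanin, led with 50.7, 61.8 and 37.1 CPM on day 2 and 6.23, 5.04 and 5.41 CPM on day 4 (-3.11, adjusted p = 1.62e-05, SE 0.27). Untreated MEFs had 0.185 ± 0.246 CPM (SD, n = 3), so day 2 stood above the days on either side. Itgb4, the laminin receptor subunit of hemidesmosomes, gave 59.5, 101 and 99.04 CPM on day 2 and 15.7, 18.9 and 8.79 CPM on day 4 (-2.70, adjusted p = 0.000331, SE 0.37), and the growth factor gene Gdf6 195, 237 and 89.7 CPM on day 2 and 43.3, 51.8 and 26.4 CPM on day 4 (-2.06, adjusted p = 4.44e-06, SE 0.15). St8sia2, the sialyltransferase that puts polysialic acid on Ncam1, fell from 449.5, 522 and 317 CPM to 130.2, 100.3 and 93.5 CPM (-1.94, adjusted p = 0.000302, SE 0.26). The others named by the rule were Cpa4, Tg, Adora1, Pla1a, Mest and Ssc5d, with -2.303, -2.22, -2.095, -1.98, -1.96 and -1.96. Ignoring the pairing ended the calls of Pla1a (adjusted p = 0.0541) and Mest (adjusted p = 0.0622), and without replicate 1 Mest was -2.16 (adjusted p = 0.101), without replicate 3 of day 2 or 2 of day 4 -1.72 to -1.11 (adjusted p = 0.0505 to 0.0615). Gal, Gdf6, Itgb4, Tg, Adora1 and St8sia2 were all under 5 CPM in untreated MEFs. By level, the most abundant of all genes that fell was Tmsb10, a thymosin that binds actin monomers, with 2648, 3254 and 2529.7 CPM on day 2 and 943, 1210.2 and 1418 CPM on day 4 (-1.24, adjusted p = 0.000220, SE 0.16). Clcn5, a chloride transporter gene, was next after Ankrd1 (-1.08, adjusted p = 0.000218, SE 0.14) and was -0.99 to -0.98 (adjusted p = 0.00109 to 0.00974) without replicate 2, its day 4 library or replicate 3 of day 2. The noncoding RNA Meg3 was among the 5 most abundant that rose, with 1076, 1095 and 866 CPM on day 2 and 2437, 3237 and 3262 CPM on day 4 (1.55, adjusted p = 0.00119, SE 0.26).

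Cells with F/R/C over the same 2 days served to ask which changes depended on treatment. No library is shared between the 2 changes. The difference (change with MyoD alone minus change with F/R/C) passed in 333 of 16536 genes (2.01%), 120 more positive (0.726%) and 213 more negative (1.29%) with MyoD alone. This count rests heavily on the libraries used: 77 passed without the pairing, 45 without replicate 1 and 20 without replicate 2. For Myh8, Tnnc2 and Cacna1s it was not called. With F/R/C their log2 fold changes were 3.03, 2.39 and 2.32, and the differences were 1.08 ± 0.45 (SE, adjusted p = 0.196), -0.35 ± 0.31 (SE, adjusted p = 0.615) and 0.06 ± 0.35 (SE, adjusted p = 0.961).

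Sln went from 0.752 ± 0.116 to 16.3 ± 5.06 CPM with MyoD alone and 7.48 ± 4.04 to 11.8 ± 2.78 CPM with F/R/C (SD, n = 3), a difference of 3.70 ± 0.38 (SE, adjusted p = 1.60e-05). Chodl went from 0.367 ± 0.281 to 9.63 ± 7.38 CPM with MyoD alone and 0.479 ± 0.369 to 0.136 ± 0.0838 CPM with F/R/C (6.57 ± 0.90, SE, adjusted p = 0.000255), and Myo1a from 1.36 ± 0.626 to 44.03 ± 22.5 CPM with MyoD alone and 0.471 ± 0.0357 to 1.05 ± 0.184 CPM with F/R/C (3.84 ± 0.48, SE, adjusted p = 0.000166). The day 4 mean of Chodl with F/R/C lay under 0.145 CPM, the level of 3 reads on day 4 of MyoD alone. The size of its difference thus rests on few reads. In the other direction stood Casq1 and Myoz1. Casq1, calsequestrin of fast fibres, went from 4.38 ± 1.001 to 10.03 ± 1.93 CPM with MyoD alone and 28.9 ± 5.79 to 629.9 ± 150.4 CPM with F/R/C (-3.23 ± 0.60, SE, adjusted p = 0.00421), and Myoz1, calsarcin of fast fibres, from 1.25 ± 0.353 to 2.18 ± 0.5003 CPM with MyoD alone and 2.098 ± 0.894 to 109.9 ± 66.5 CPM with F/R/C (-4.77 ± 0.74, SE, adjusted p = 0.000812). With MyoD alone Casq1 rose just past 2-fold (1.21, adjusted p = 0.00705, SE 0.27), a call lost without the pairing (adjusted p = 0.163), without replicate 1 (1.23, adjusted p = 0.0850) and without replicate 2 of day 2 (0.98), and Myoz1 was not called (0.82, adjusted p = 0.0460, SE 0.28). Without replicate 1 in both treatments the differences of Casq1 and Myoz1 were -3.43 (adjusted p = 0.144) and -5.01 (adjusted p = 0.0709). Without replicate 2 that of Casq1 was -3.16 (adjusted p = 0.102).

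The difference was also called for a fusion gene and some genes that fell with MyoD alone. Of the 4 given here only Itgb4 was rerun without a replicate or without the pairing. For Mymk, Mef2a and St8sia2 the dependence on single replicates was not tested. Mymk went from 1409 ± 373 to 1313 ± 352 CPM with MyoD alone and 481 ± 181 to 1109.7 ± 165 CPM with F/R/C (SD, n = 3), a difference of -1.35 ± 0.27 (SE, adjusted p = 0.00705). Mef2a was 654 ± 75.1 to 221 ± 20.2 CPM with MyoD alone and 861 ± 164 to 624 ± 58.5 CPM with F/R/C (-1.09 ± 0.14, SE, adjusted p = 0.000210), and St8sia2 429 ± 104 to 108 ± 19.5 CPM with MyoD alone and 220.1 ± 59.5 to 405 ± 150.04 CPM with F/R/C (-2.75 ± 0.37, SE, adjusted p = 0.000242). Itgb4 went from 86.6 ± 23.4 to 14.5 ± 5.17 CPM with MyoD alone and 4.23 ± 1.63 to 12.5 ± 8.59 CPM with F/R/C (-4.22 ± 0.75, SE, adjusted p = 0.00305), and without replicate 1 its difference was -4.14 (adjusted p = 0.0912), without replicate 2 -4.26 (adjusted p = 0.109) and without the pairing -4.15 (adjusted p = 0.0570).

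**Figure D5:**
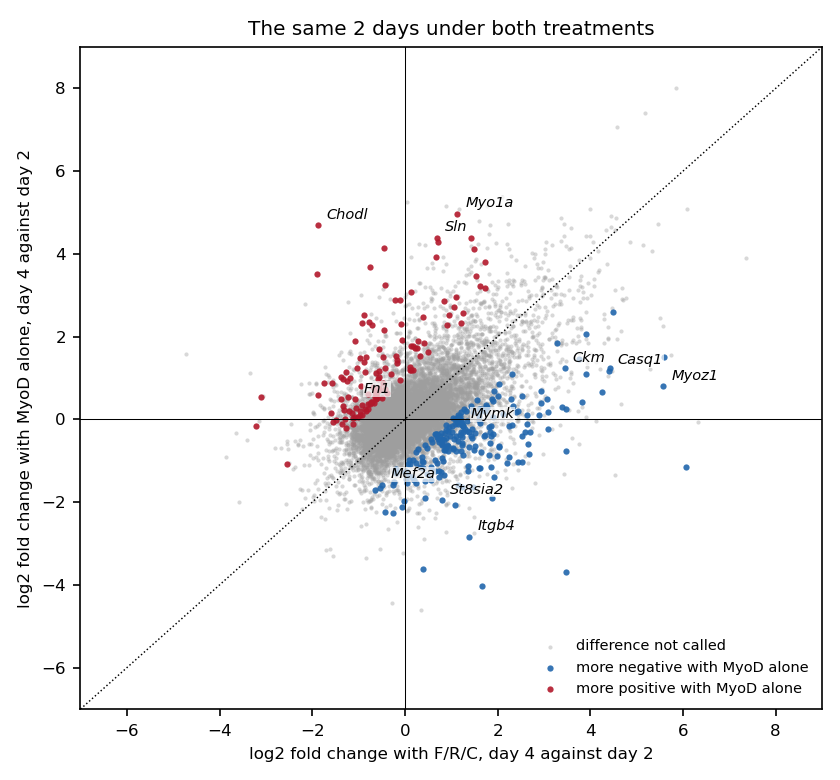
Each point is a gene, with its log2 fold change from day 2 to day 4 with F/R/C (x) against that with MyoD alone (y), coloured where the difference was called, and the dotted line marks equal change. The 269 genes without a read in at least one of the groups are left out. Chodl, Myo1a and Sln lie above the line, and Myoz1, Casq1, Itgb4 and St8sia2 below it.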

How the data were processed

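Each library was poly(A)-selected, stranded and sequenced as single reads, per the labels' protocols. The authors deposited kallisto estimated counts and TPM per transcript, per the file headers. The submitters' processing notes name bcl2fastq 2.19, Trimmomatic 0.36, kallisto 0.44, edgeR 3.28 and GRCm38.p6. The transcript release and strand setting are not given in the sources used here. To get gene values, estimated counts were added up within each of 35675 genes (GENCODE names; 739 of 121843 transcripts unmatched) and rounded, and TPM were added up likewise. kallisto divides reads shared by near-identical transcripts, so counts of paralogs are uncertain: 25945 genes had whole counts (within 0.01 reads) in all 6 libraries.

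The main test was edgeR 4.0.16 (R 4.3.3) with TMM scaling, filterByExpr and the quasi-likelihood test on the 15 libraries of MyoD alone, with the replicate number as a block and Benjamini-Hochberg adjustment. A standard error is the log2 fold change divided by the root of the F statistic. The difference between treatments was an interaction term over 30 libraries. Every adjusted p in the text comes from these fits or a named alternative. Each pair of same-numbered libraries deviated together from its group means (r = 0.4567, 0.5117 and 0.4869 across genes), which is why the numbers were taken to pair the samples, as the comparison defines. CPM are on TMM sizes over 33 libraries. On simulated data with 200 of 15335 genes changed 4-fold, the test recovered 91.5% with 4 false calls. The simulated libraries were independent, with no replicate effect and with changes on day 4 only. They therefore cannot speak to the pairing or to changes near 2-fold. The labels name no batch. Alternatives were DESeq2 1.42.0, other scaling, filters and library sets, and leaving out replicates.

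Members and gene lists were chosen with earlier results of these data known. Named genes are Myod1, at most 8 a list (largest called, then most abundant uncalled), the 10 largest changes each way outside the lists, the 5 most abundant called each way and the 5 largest differences between treatments each way. Myog, Mymx, the markers given with at most 3 reads and the neighbour genes in the closing observations fall outside that rule and were chosen after their values were seen. Some genes that the rule names are not reported here.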

Additional observations from a re-analysis of the deposited data

Results flagged for a closer look

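For 29 genes named here or by the naming rule, the change from day 2 to day 4 differed between MyoD alone and MyoD with F/R/C in the interaction term of the fit over both treatments (edgeR, adjusted p from 1.60e-05 to 0.0452). Values are log2 differences, MyoD alone minus F/R/C. Other settings were run only for the 5 largest differences each way under the naming rule. For the other genes the dependence on single replicates was not tested. The change was more positive with MyoD alone in 8: Sln 3.70, Fn1 1.56, Chodl 6.57, Myo1a 3.84, Afap1l2 2.97, Pik3cg 3.25, Dio2 3.13 and Nxf7 3.11. It was more negative in 21: Mef2a -1.09, Ankrd2 -1.85, Scn4a -1.88, Casq1 -3.23, Myoz1 -4.77, Mymk -1.35, Ncam1 -1.35, Chrna1 -1.46, Ckm -2.21, Rbm24 -1.15, Tgfb2 -1.91, Spry1 -1.14, Bst2 -1.47, Tubb3 -1.54, Itgb4 -4.22, Tg -1.99, Adora1 -2.06, St8sia2 -2.75, Tmsb10 -1.27, Hrh3 -4.09 and Sbk2 -3.33.

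Mean levels on days 2 and 4 were 0.334 and 5.51 CPM for Pik3cg with MyoD alone and 0.427 and 0.677 CPM with F/R/C. Dio2 had 1.71 and 8.18 CPM with MyoD alone and 21.8 and 12.6 CPM with F/R/C. Nxf7 had 1.45 and 11.5 CPM against 10.0 and 8.4 CPM, in the same order. Hrh3 had 2.74 and 7.96 CPM against 0.147 and 7.88 CPM, and Sbk2 0.491 and 0.423 CPM against 0.689 and 6.55 CPM. For Dio2, Nxf7 and Hrh3 the treatments lay further apart on day 2 than on day 4. The difference of Pik3cg had an adjusted p of 0.0794 without the pairing, 0.265 without replicate 1 and 0.448 without replicate 2. The difference of Dio2 had an adjusted p of 0.0787 without the pairing, 0.148 without replicate 2 and 0.151 without replicate 3. The difference of Nxf7 had an adjusted p of 0.164 without the pairing, 0.164 without replicate 1 and 0.348 without replicate 2. The difference of Hrh3 had an adjusted p of 0.106 without replicate 1 and 0.0778 without replicate 2. Its day 2 mean with F/R/C was 0.147 CPM, under the 0.163 CPM that 3 reads made on day 2 of MyoD alone. The size of the Hrh3 difference thus rests on few reads. The difference of Sbk2 had an adjusted p of 0.164 without the pairing, 0.237 without replicate 1, 0.283 without replicate 2 and 0.0965 without replicate 3.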

How the results depend on the processing

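The count of changed genes moved with the minimum fold change, the pairing and the libraries used. Against 1382 called (1079 higher, 303 lower), the fit with no replicate block called 683 (562 higher, 121 lower), the 6 libraries without the block 771 (619 and 152), all 45 libraries without the block 432 (377 and 55) and genes with whole counts alone 790 (623 and 167, of 7892 tested). With no minimum fold change 4346 passed (2343 and 2003). Counts stayed within 1.5 times with DESeq2 (1418), RLE scaling (1383), no filter (1395), the 6 libraries with the block (1274) and both treatments with the block (1172). Leaving out replicates or single libraries gave 871 to 1491, with 693 to 1128 higher and 178 to 363 lower. For the difference between treatments (333, 120 more positive and 213 more negative), no replicate block gave 77 (16 and 61), DESeq2 550 (201 and 349) and the 12 libraries compared 687 (288 and 399). Leaving out a replicate number gave 20 to 347 (6 to 137 and 14 to 210). Of 95 named genes that were called, 95 kept their direction and 46 their call in each of the 17 settings that tested all of them, and 76 kept the call in every setting with a replicate left out. The setting with whole counts alone tested 54 of them, and 54 kept their call. Uncalled values near 0 changed sign with libraries left out: Myog ranged from -0.12 to 0.44, Mymk from -0.19 to 0.028 and Mymx from -0.27 to 0.012. The cause of these shifts was not tested. Genes under about 0.163 CPM on day 2 or 0.145 CPM on day 4, the level of 3 reads, were below what this depth resolves.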

Other observations

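Some neighbouring genes rose together, and these genes were chosen after their values were seen. On chromosome 9 (GRCm38), Cd3g and Cd3e, both chains of the T-cell receptor complex, and Mpzl2, an adhesion protein gene, rose. Cd3e gave 0.0934, 0.109 and 0.08505 CPM on day 2 and 1.45, 2.64 and 4.39 CPM on day 4 (adjusted p = 8.53e-06), with at most 2 reads in a day 2 library, so no fold is given. Mpzl2 gave 1.03, 0.0544 and 0.936 CPM on day 2 and 2.605, 6.24 and 7.24 CPM on day 4, a log2 fold change of 2.94 (adjusted p = 0.00122, SE 0.49). Cd3d, the third CD3 chain gene of the locus, was not called at 0.234, 0.272 and 0.128 CPM on day 2 and 0.213, 0.768 and 0.483 CPM on day 4. The neighbours Atp5l and Ube4a were not called either (-0.16 and 0.11), and Gm48719, which overlaps Cd3e on the other strand, was too low to test. The leukocyte marker Adgre1 had at most 1 read in any of the 6 libraries.

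On chromosome 11, Tcap (chr11:98383811-98384953), Pnmt (chr11:98386450-98388181) and Erbb2 (chr11:98412470-98437716) lie within a short stretch and all rose, by 2.51, 4.997 and 1.23 on the log2 scale. Gm12352 (chr11:98438037-98439046), next to Erbb2, also rose, with 0.654, 1.79 and 1.02 CPM on day 2 and 3.37, 5.52 and 3.52 CPM on day 4, a log2 fold change of 1.87 (adjusted p = 0.000122, SE 0.22). It overlaps Mien1 on the other strand, and as the strand setting is not given, reads of the 2 genes cannot be told apart. The neighbours Stard3, Pgap3 and Mien1 were not called (0.22, 0.68 and -0.38).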
